A study of Mus musculus with 8 samples.

Results

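The genes described here are 39 that burn fuel in muscle mitochondria: 19 of pyruvate dehydrogenase and the tricarboxylic acid cycle, and 20 of fatty acid oxidation. They were selected by name from textbook pathways, and a gene was measured if a probe of the array carries its symbol or a synonym in the platform annotation. By that rule 37 of the 39 genes were measured, out of 16593 named genes on the array, all 19 of the cycle and 18 of fatty acid oxidation. Acsl1 and Hadha had no probe of that name and were not analysed here. Each gene is represented by the brightest of its probes over all arrays. RNA came from the tibialis anterior, a shin muscle of mostly fast fibres, of male C57BL/6 mice aged 8 weeks. In 1 group a plasmid carrying spermine oxidase had been put into the muscle 7 days earlier, and in the other a control plasmid. Each group had 4 muscles on 1 Illumina bead array apiece, numbered 1 to 4 in both groups. Muscles of both legs were taken, but no label ties a muscle to a mouse or a leg. The content of the control plasmid, the promoters and the share of fibres transfected are not stated in the labels. The study asks what raising spermine oxidase does to the mRNAs of muscle.

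Pyruvate dehydrogenase turns the pyruvate of glycolysis into acetyl-CoA, and pyruvate dehydrogenase kinases switch it off by phosphorylation. The cycle oxidises acetyl-CoA and passes the electrons to the respiratory chain. Fatty acids reach the same acetyl-CoA by another route: they are taken up, activated, carried into mitochondria on carnitine and shortened by a repeated sequence of dehydrogenation, hydration, oxidation and thiolysis. Muscle is known to move between the 2 fuels with feeding, fasting and exercise, and slow oxidative fibres carry more of both sets of enzymes than fast fibres.

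All values are log2 signals as deposited, differences are spermine oxidase minus control, and the error after ± is the standard error of limma's fit for a difference and the SD over 4 muscles for a level. The array signal has a floor, and a gene is called near the floor where its mean over the 8 muscles was below 8.5. This limit was chosen after seeing the data. Of the 37 genes, 33 lay above it, and fold changes of the 4 others (Sucla2, Cd36, Hadh and Acot2) are understated. Because it is not stated that each muscle is from another mouse, a p-value here measures the spread among the 8 samples, part of which may be technical. Precision is limited by having 4 arrays a group. Smox read 11.15, 10.92, 10.90 and 10.17 in control muscles 1 to 4 and 12.58, 11.56, 12.02 and 11.60 in spermine oxidase muscles 1 to 4, so the gene of the plasmid separated the groups. Its difference was 1.16 ± 0.28 (limma adjusted p = 0.233, exact two-sided permutation p = 0.0286, the smallest that 4 against 4 allows). Smox has 5 probes, and the order of the muscles depends on the probe. On the brightest and the next, which differed by 1.15 ± 0.29, spermine oxidase muscle 1 was the highest. On the 3 dimmer probes, which differed by 3.30 to 3.44, spermine oxidase muscle 2 was the highest (12.99 to 13.29). Control muscle 4 was the lowest on all 5. The fibre markers read 14.95 to 15.09 for Acta1, the skeletal actin, and 14.75 to 15.01 for Ckm, the muscle creatine kinase, near the top of the scale in all 8 muscles, while the slow myosin Myh7 lay at the floor (8.17 to 8.24).

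With limma and no pairing of muscles, 0 of the 37 genes reached an adjusted p under 0.05, as did 0% of all 16593 genes. At an unadjusted p under 0.05 there were 1833 of all genes (1050 higher, 783 lower), and 4 of the 37: Decr1, Pdk2 and Acadvl were higher and Idh3b was lower. With an intensity trend and robust prior limma called 8 genes, and none of them was among the 37. The groups overlapped for 36 of the 37 genes, the exception being Decr1, which was higher. Over all genes, 3.66% separated the groups with higher and 2.51% with lower values after spermine oxidase, so 1 of 37 is near that background.

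Among the genes of pyruvate dehydrogenase and the cycle, 16 of 19 had a higher mean after spermine oxidase, while 49.2% of all genes did and 47.0% of the genes above the floor. The median difference was 0.11, beside -0.00064 over all genes, and single differences ran from -0.24 (Idh3b) to 0.43 (Pdk4). At an unadjusted p under 0.05, 1 of the 19 was higher (6.33% of all genes) and 1 was lower (4.72% of all genes), shares near those of all genes. None of the 19 separated the groups. With array weights the median difference was 0.069. Without spermine oxidase muscle 1 it was 0.034 with 13 of 19 higher, and without spermine oxidase muscle 2 it was 0.18 with 17 of 19 higher.

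**Figure D1:**
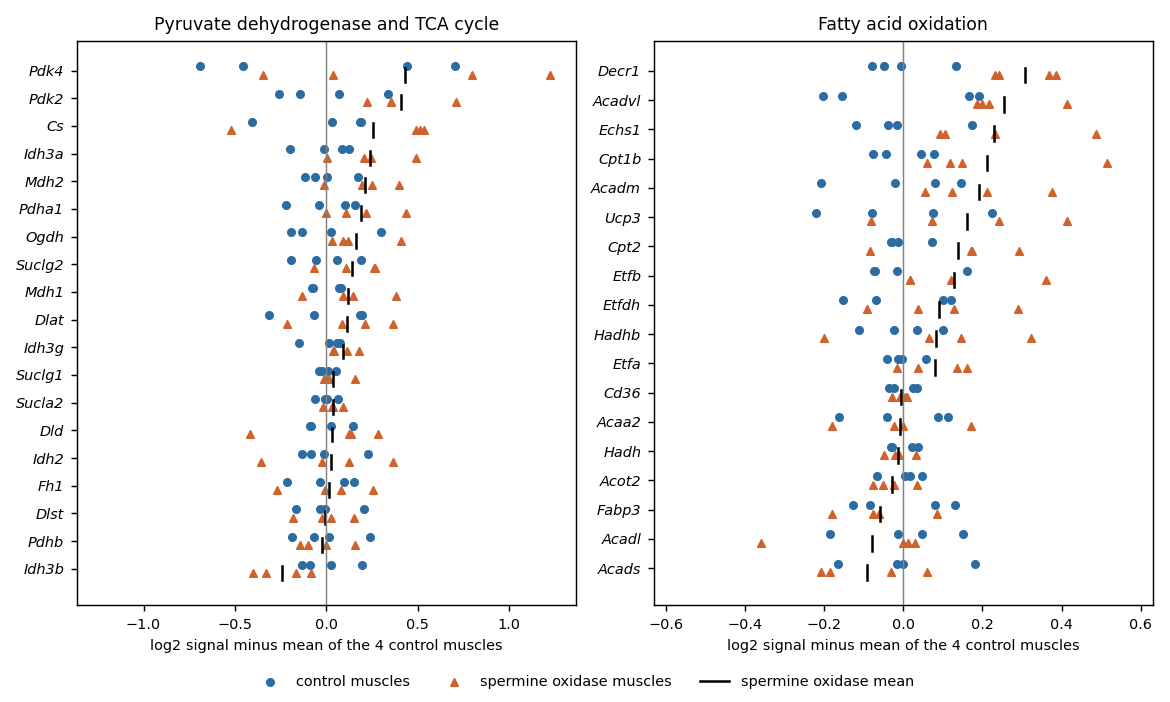
Each of the 37 genes in each of the 8 muscles, as log2 signal minus the mean of the 4 control muscles (horizontal axis), for pyruvate dehydrogenase and the cycle (left) and fatty acid oxidation (right); blue circles are control muscles, orange triangles spermine oxidase muscles and black bars the spermine oxidase mean. The genes are sorted by their difference, and Decr1 is the gene whose 4 triangles all lie to the right of its 4 circles.

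With all 8 muscles, Pdk2 and Pdk4, kinases that switch pyruvate dehydrogenase off, had the largest differences of this set. The kinases Pdk1 and Pdk3, outside the set, differed by 0.098 ± 0.053 and -0.13 ± 0.064, so the kinases had no shared direction. Pdk2 read 10.06, 9.80, 9.58 and 9.47 in control muscles 1 to 4 and 10.43, 10.08, 10.08 and 9.95 in spermine oxidase muscles 1 to 4. Every spermine oxidase muscle read above control muscles 2 to 4, and control muscle 1 lay within the spermine oxidase range. The difference was 0.41 ± 0.15, or 1.33-fold, with an interval of 0.064 to 0.76 (95%) and a limma adjusted p = 0.377. Subtracted by muscle number it was 0.37, 0.29, 0.50 and 0.48. Limma called Pdk2 only with that number as a block, and no label states such a pairing. Pdk4, the kinase known to be induced in muscle by fasting, spread far more. Pdk4 read 11.24, 12.37, 12.63 and 11.47 in control muscles 1 to 4 and 11.97, 12.73, 13.16 and 11.59 in spermine oxidase muscles 1 to 4. Muscles 2 and 3 were the highest of both groups. The difference of 0.43 ± 0.43 was smaller than the spread within either group (11.93 ± 0.68 and 12.36 ± 0.71, SD, n = 4), and its interval of -0.58 to 1.44 (95%) includes 0. It was 0.16 without spermine oxidase muscle 3, 0.20 without control muscle 1 and 0.69 without spermine oxidase muscle 4. By muscle number the Pdk4 difference was 0.72, 0.35, 0.52 and 0.11, and limma did not call Pdk4 with or without the block. Pdp1, a phosphatase that switches the enzyme back on and that was named after its values were seen, differed by 0.30 ± 0.11 (limma adjusted p = 0.377). Its groups did not overlap, as for 3.66% of all genes in that direction. Of the related genes, Pdp2 differed by 0.054 ± 0.049, and Pdpr, near the floor, by -0.032 ± 0.026.

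Promoters of genes from both pathways are shown because genes of fuel oxidation are known targets of nuclear receptors such as the PPAR and ERR families, whose binding hexamer is AGGTCA. They come from RefSeq on build GRCm38.p6, run 5′ to 3′ on the gene's strand, and end shortly after the annotated start. Capitals mark AGGTCA or its reverse complement TGACCT. Promoters were found for 33 of the 37 genes, and Acaa2, Cpt1b, Decr1 and Idh3a had no entry. Of the 33 genes, 9 held the hexamer in a window, while 18.1% of all 27025 genes of the table did. These 9 were Acadm, Acadvl, Cd36, Echs1, Fh1, Idh3g, Ogdh, Sucla2 and Ucp3. The longer AAGGTCA, which contains the hexamer, stood in 2 of the 33 (Acadm and Ogdh) and in 5.38% of all genes. TCAAGGTCA was in 0 of the 33 and in 0.466% of all genes. The windows of Pdk2 (the first of 2 starts, chr11:95041322-95041621, minus strand), of Pdk4 (chr6:5496229-5496528, minus strand) and of Idh3b (chr2:130284402-130284701, minus strand), the genes with the largest differences of the cycle set in each direction, hold no match. That of Ogdh (chr11:6291920-6292219, plus strand, the only 1 of its 6 starts with a match) holds it 5 bases before the start.
Pdk2: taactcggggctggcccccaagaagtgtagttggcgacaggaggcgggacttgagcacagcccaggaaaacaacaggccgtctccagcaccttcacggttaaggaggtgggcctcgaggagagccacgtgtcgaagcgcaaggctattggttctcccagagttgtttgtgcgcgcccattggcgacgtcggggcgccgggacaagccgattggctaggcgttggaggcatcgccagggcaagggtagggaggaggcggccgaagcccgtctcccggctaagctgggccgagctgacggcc
Pdk4: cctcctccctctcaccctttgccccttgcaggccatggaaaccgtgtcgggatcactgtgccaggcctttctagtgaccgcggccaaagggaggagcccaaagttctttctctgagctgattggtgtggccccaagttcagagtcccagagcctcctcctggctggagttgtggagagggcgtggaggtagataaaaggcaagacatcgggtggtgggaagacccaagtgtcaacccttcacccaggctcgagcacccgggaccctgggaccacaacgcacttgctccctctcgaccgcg
Idh3b: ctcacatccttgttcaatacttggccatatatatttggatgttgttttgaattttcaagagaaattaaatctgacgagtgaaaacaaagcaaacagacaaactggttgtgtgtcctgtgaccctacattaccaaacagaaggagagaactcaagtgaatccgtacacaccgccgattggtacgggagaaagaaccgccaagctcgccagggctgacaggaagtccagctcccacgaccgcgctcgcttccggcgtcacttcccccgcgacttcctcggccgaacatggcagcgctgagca
Ogdh: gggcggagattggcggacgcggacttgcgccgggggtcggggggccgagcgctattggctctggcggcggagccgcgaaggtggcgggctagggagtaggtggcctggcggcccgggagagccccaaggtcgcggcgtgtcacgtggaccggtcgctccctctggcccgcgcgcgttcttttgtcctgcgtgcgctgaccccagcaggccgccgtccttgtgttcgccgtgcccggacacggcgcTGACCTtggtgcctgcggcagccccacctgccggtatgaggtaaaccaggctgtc

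The subunits of pyruvate dehydrogenase itself differed little. Pdha1, the alpha subunit of the enzyme that decarboxylates pyruvate, read 13.37, 13.43, 13.23 and 13.06 in control muscles 1 to 4 and 13.71, 13.27, 13.38 and 13.49 in spermine oxidase muscles 1 to 4. Its difference was 0.19 ± 0.11 (limma adjusted p = 0.602), and spermine oxidase muscle 1 was the highest of the 8. Pdhb, the beta subunit of the same enzyme, differed by -0.022 ± 0.099, and its dimmer probe by 0.068 ± 0.054, so the sign depends on the probe. Dlat, the acetyltransferase core of the complex, differed by 0.11 ± 0.15, with control muscles at 10.13 to 10.64 and spermine oxidase muscles at 10.23 to 10.81. Dld, the dehydrogenase that the complex shares with alpha-ketoglutarate dehydrogenase, differed by 0.031 ± 0.15 and was lowest of all in spermine oxidase muscle 2, at 8.94.

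Among the enzymes that open the cycle, citrate synthase was lowest in muscle 2 of each group. Cs, which joins acetyl-CoA to oxaloacetate and is widely used as a measure of mitochondrial content, read 12.53, 11.93, 12.53 and 12.37 in control muscles 1 to 4 and 12.85, 11.82, 12.83 and 12.88 in spermine oxidase muscles 1 to 4. The 3 other spermine oxidase muscles all read above the 4 control muscles. With all 8 muscles the difference was 0.26 ± 0.26 (limma adjusted p = 0.786, interval -0.35 to 0.86, 95%). Without spermine oxidase muscle 2 it was 0.51 (limma adjusted p = 0.219), and without control muscle 2 it was 0.12. Idh2, the mitochondrial isocitrate dehydrogenase that makes NADPH, differed by 0.028 ± 0.15, and muscle 4 was its highest in both groups, at 10.81 and 10.95.

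The subunits of the cycle's own NAD-dependent isocitrate dehydrogenase had differences of both signs. Idh3a, the catalytic subunit, read 12.54, 12.58, 12.45 and 12.26 in control muscles 1 to 4 and 12.95, 12.46, 12.67 and 12.70 in spermine oxidase muscles 1 to 4, a difference of 0.24 ± 0.11 (limma adjusted p = 0.492). Idh3b, a regulatory subunit, read 11.08, 11.19, 11.03 and 11.36 in control muscles 1 to 4 and 10.77, 11.00, 10.83 and 11.08 in spermine oxidase muscles 1 to 4. Spermine oxidase muscles 1 to 3 lay below all control muscles and spermine oxidase muscle 4 within their range. The Idh3b difference was -0.24 ± 0.092 (interval -0.46 to -0.032, 95%, limma adjusted p = 0.383). Subtracted by muscle number it was -0.31, -0.19, -0.20 and -0.28. As for Pdk2, limma called Idh3b only with the number as a block. Idh3g, the other regulatory subunit, differed by 0.094 ± 0.055, and its dimmer probe by 0.11 ± 0.12. Within each array, the log2 signal of Idh3a minus that of Idh3b was 0.91 to 1.47 in control muscles and 1.46 to 2.19 in spermine oxidase muscles, ranges that overlapped only at their ends. This contrast was picked after its values were seen and was not tested.

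**Figure D2:**
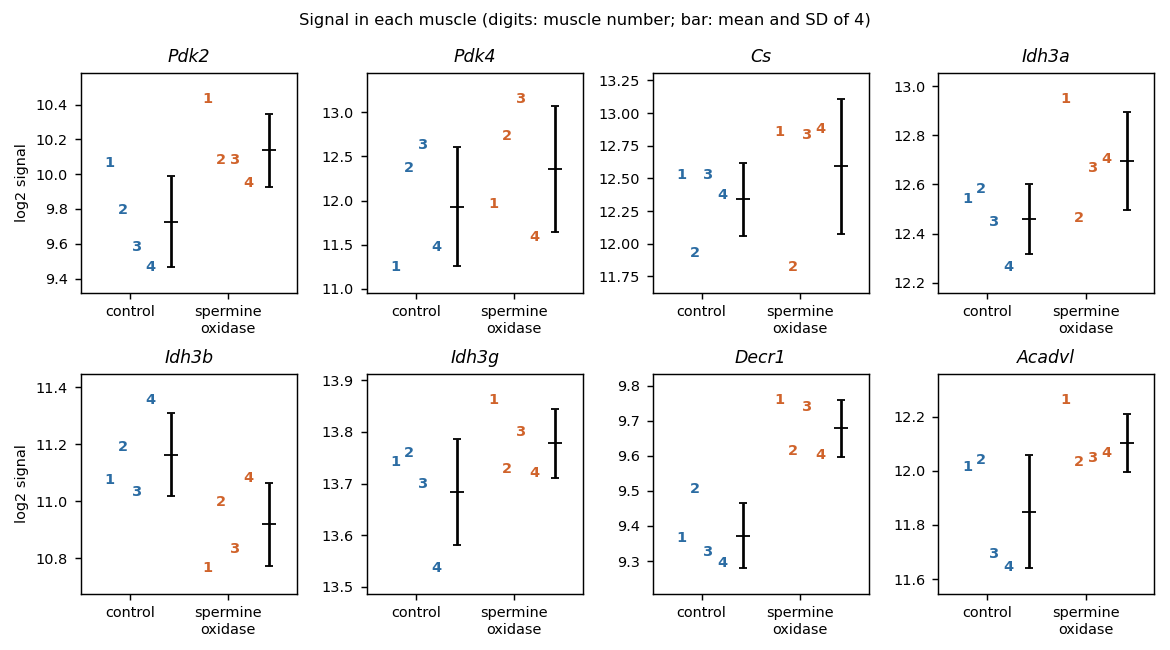
Log2 signal (vertical axis, own scale for each gene, not from 0) of 8 genes in control (blue) and spermine oxidase (orange) muscles; digits are muscle numbers and the black bar is the mean with the SD of 4 muscles. Decr1 separates the groups, Cs has muscle 2 low in both, Pdk4 has muscles 2 and 3 high in both, and Idh3b lies lower after spermine oxidase while Idh3a and Idh3g lie higher.

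The later steps of the cycle differed by 0.21 or less in mean. Ogdh, the decarboxylating enzyme of alpha-ketoglutarate dehydrogenase, read 11.80, 11.53, 11.31 and 11.37 in control muscles 1 to 4 and 11.91, 11.62, 11.59 and 11.53 in spermine oxidase muscles 1 to 4, a difference of 0.16 ± 0.12. Muscle 1 was the highest in both groups. Dlst, the succinyltransferase of the same complex, differed by -0.0068 ± 0.092. Succinyl-CoA ligase is built from the shared subunit Suclg1 and 1 of 2 nucleotide-specific subunits, Suclg2 for GTP and Sucla2 for ATP. Suclg1 differed by 0.039 ± 0.041 on its brightest probe and by 0.14 ± 0.099 on the next, and Suclg2 by 0.14 ± 0.10. Sucla2 lay at the floor in every muscle (8.24 to 8.40), so this probe says little about it. Fh1, the fumarase, differed by 0.015 ± 0.12. Mdh2, the mitochondrial malate dehydrogenase, read 12.75, 12.92, 12.63 and 12.68 in control muscles 1 to 4 and 13.15, 12.73, 13.00 and 12.94 in spermine oxidase muscles 1 to 4. Its difference was 0.21 ± 0.095 (limma adjusted p = 0.478), with spermine oxidase muscle 2 inside the control range and the 3 others above it. Mdh1, the malate dehydrogenase of the cytosol, differed by 0.12 ± 0.10. Its 2 dimmer probes lay near the floor (8.43 and 8.25 in control muscles) and differed by 0.097 ± 0.039 and 0.032 ± 0.018.

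In a further list of the cycle, pyruvate entry and related enzymes, 15 of 19 were higher, beside 49.2% of all genes, with a median difference of 0.070. The related enzymes include Me1, Idh1, Got1, Got2 and Glud1. Above the floor 12 of 14 were higher, beside 47.0% of all genes there. Of the 19, 0 passed the adjusted threshold with limma, unpaired. Me1, the malic enzyme of the cytosol that makes NADPH, had the smallest p. Me1 read 9.37, 9.45, 9.70 and 9.22 in control muscles 1 to 4 and 10.52, 10.03, 10.69 and 10.16 in spermine oxidase muscles 1 to 4. The groups of Me1 did not overlap, as for 3.66% of all genes in that direction. Its difference of 0.92 ± 0.16 (limma adjusted p = 0.179) was the largest of that list. Got1, the cytosolic aspartate aminotransferase of the malate-aspartate shuttle, differed by 0.39 ± 0.099, and Sdhd, a membrane anchor of succinate dehydrogenase, by 0.25 ± 0.085.

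In fatty acid oxidation, 11 of 18 genes had a higher mean after spermine oxidase, beside 49.2% of all genes, and 11 of the 15 above the floor, beside 47.0%. The median difference was 0.087, and single differences ran from -0.091 (Acads) to 0.31 (Decr1). At an unadjusted p under 0.05, 2 of the 18 were higher and 0 were lower, beside 6.33% and 4.72% of all genes. Without spermine oxidase muscle 1 the median difference was 0.051, and without spermine oxidase muscle 2 it was 0.14.

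Decr1 had the smallest p of either pathway and separated the groups, as 3.66% of all genes did in the same direction. It encodes the mitochondrial dienoyl-CoA reductase, which removes the extra bonds of polyunsaturated fatty acids so that they can be oxidised. Decr1 read 9.37, 9.51, 9.32 and 9.29 in control muscles 1 to 4 and 9.76, 9.62, 9.74 and 9.60 in spermine oxidase muscles 1 to 4. All 4 spermine oxidase muscles lay above control muscle 2, the highest control. The difference was 0.31 ± 0.057, or 1.24-fold (interval 0.18 to 0.44, 95%). Its limma adjusted p was 0.179, and the exact two-sided permutation p was 0.0286. Leaving out any 1 muscle kept the difference between 0.28 and 0.35. Ech1, an isomerase of the same side path, was higher in all 4 spermine oxidase muscles too, at 12.73 to 12.86 against 12.94 to 13.09, a difference of 0.20 ± 0.043 (limma adjusted p = 0.193). Acot2, a thioesterase of the mitochondrial matrix, lay near the floor (8.31 to 8.44).

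The proteins that bring fatty acids to mitochondria showed no shared direction. Cd36, the fatty acid transporter of the cell surface, lay at the floor in all 8 muscles (8.21 to 8.28), so its probe gives no usable level. Fabp3, the fatty acid-binding protein of heart and muscle, read 13.24, 13.45, 13.50 and 13.29 in control muscles 1 to 4 and 13.29, 13.19, 13.45 and 13.31 in spermine oxidase muscles 1 to 4, with overlapping groups and a difference of -0.058 ± 0.074. Cpt1b, the muscle carnitine palmitoyltransferase that controls entry into mitochondria, read 12.14, 12.11, 12.02 and 11.99 in control muscles 1 to 4 and 12.58, 12.12, 12.18 and 12.21 in spermine oxidase muscles 1 to 4. Its difference of 0.21 ± 0.098 (limma adjusted p = 0.496) was 0.11 without spermine oxidase muscle 1, the highest of the 8, and its dimmer probe differed by 0.12 ± 0.091. Cpt2, which releases the fatty acid inside, differed by 0.14 ± 0.075. It was below every control muscle in spermine oxidase muscle 2 (10.66) and above every control muscle in the 3 others.

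The acyl-CoA dehydrogenases, which take the first electrons, had differences of both signs. Acadvl, for very long chains, read 12.01, 12.04, 11.69 and 11.65 in control muscles 1 to 4 and 12.26, 12.03, 12.05 and 12.06 in spermine oxidase muscles 1 to 4. Control muscles 3 and 4 lay well below the rest, and control muscles 1 and 2 beside spermine oxidase muscles 2 to 4. The difference was 0.25 ± 0.10 (interval 0.011 to 0.50, 95%, limma adjusted p = 0.429). Acadm, for medium chains, differed by 0.19 ± 0.093, and its dimmer probe by 0.21 ± 0.16. Acadl, for long chains, differed by -0.079 ± 0.10, with spermine oxidase muscle 2 lowest at 9.81. A dimmer Acadl probe gave 0.051 ± 0.067, of the other sign. Acads, for short chains, differed by -0.091 ± 0.085, and its dimmer probe, at 8.66 in control muscles, by 0.024 ± 0.064. The promoters of Acadvl (chr11:70015379-70015678, minus strand) and Acadm (chr3:153944594-153944893, minus strand), shown as the members of this family with the hexamer, hold it 87 and 249 bases before the start. In Acadm it is the longer AAGGTCA on the reverse strand.
Acadvl: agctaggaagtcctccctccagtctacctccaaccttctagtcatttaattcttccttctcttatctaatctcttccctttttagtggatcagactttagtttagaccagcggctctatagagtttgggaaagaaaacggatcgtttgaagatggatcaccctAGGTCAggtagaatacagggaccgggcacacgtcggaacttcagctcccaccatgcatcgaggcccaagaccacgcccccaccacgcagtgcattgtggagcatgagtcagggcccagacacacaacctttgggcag
Acadm: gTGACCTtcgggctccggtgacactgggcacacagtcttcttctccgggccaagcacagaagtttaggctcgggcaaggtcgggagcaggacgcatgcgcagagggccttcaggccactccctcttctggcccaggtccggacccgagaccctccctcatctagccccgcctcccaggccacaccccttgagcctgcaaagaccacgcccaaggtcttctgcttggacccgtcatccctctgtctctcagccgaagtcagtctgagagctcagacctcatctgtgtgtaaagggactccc

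The enzymes that complete each round differed by at most 0.23 in mean. Echs1, the hydratase for short chains, read 11.31, 11.12, 11.10 and 11.01 in control muscles 1 to 4 and 11.62, 11.23, 11.37 and 11.24 in spermine oxidase muscles 1 to 4, a difference of 0.23 ± 0.099 (limma adjusted p = 0.453). Muscle 1 was the highest in both groups, and control muscle 1 was the only control within the spermine oxidase range. Hadhb, the thiolase subunit of the trifunctional protein, differed by 0.083 ± 0.11. Hadh, a hydroxyacyl-CoA dehydrogenase, lay at the floor (8.29 to 8.38). Acaa2, a thiolase of the matrix, had 4 probes, whose differences ran from -0.026 to 0.0046, each smaller than its standard error.

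Electrons of fatty acid oxidation pass through the electron transfer flavoprotein, made of Etfa and Etfb, to Etfdh, which hands them to ubiquinone. All 3 genes had higher means, by 0.079 ± 0.043, 0.13 ± 0.088 and 0.091 ± 0.093, with limma adjusted p-values of 0.570, 0.658 and 0.785 and overlapping groups. The dimmer probes of Etfa differed by 0.0094 to 0.15 and that of Etfb by 0.034. Ucp3, the muscle uncoupling protein whose mRNA is known to follow fatty acid supply, read 8.89, 9.20, 9.05 and 8.75 in control muscles 1 to 4 and 8.89, 9.21, 9.38 and 9.04 in spermine oxidase muscles 1 to 4. Its groups overlapped, with a difference of 0.16 ± 0.13, and muscles 2 and 3 were the highest of both groups, as for Pdk4.

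**Figure D3:**
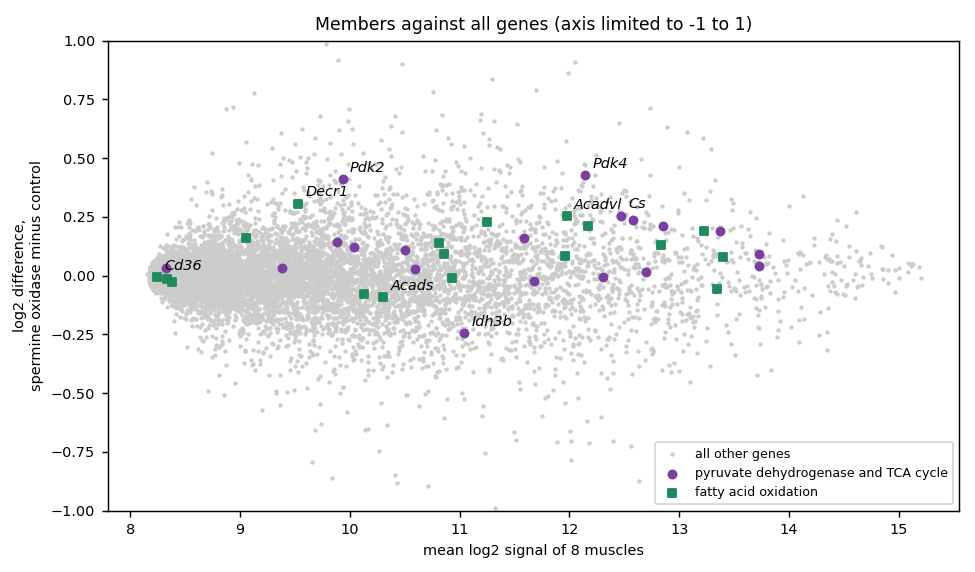
Log2 difference, spermine oxidase minus control (vertical axis, limited to -1 to 1, which leaves out 11 genes), against the mean log2 signal of the 8 muscles (horizontal axis) for all genes in grey, the pyruvate dehydrogenase and cycle genes as purple circles and the fatty acid oxidation genes as green squares. Most coloured points lie above 0 and inside the grey cloud, and Cd36 lies at the floor on the left.

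In a further list of fatty acid oxidation and related genes, 25 of 34 were higher, beside 49.2% of all genes, with a median difference of 0.061. The related genes include Acaca, Fabp4, Pcca and Pccb. Above the floor 18 of 25 were higher, beside 47.0% of all genes there, with a median of 0.13. Slc27a1, a fatty acid transport protein, separated the groups (8.62 to 8.73 against 8.88 to 9.25, difference 0.30 ± 0.081), and Acadsb, which acts on branched chains, differed by 0.26 ± 0.079. Of 15 genes of triglyceride storage and release, 11 were higher and 4 lower, with a median of 0.14. Angptl4 and Plin2 had the largest falls, with differences of -0.49 ± 0.21 and -0.14 ± 0.10 and overlapping groups. Abhd5, the activator of the lipase that opens stored fat, read 9.38 to 9.57 in control and 9.62 to 9.92 in spermine oxidase muscles, a difference of 0.31 ± 0.068 (limma adjusted p = 0.201). Plin4, a lipid droplet coat protein, differed by 0.66 ± 0.19, and Mgll, the monoglyceride lipase, by 0.17 ± 0.050, both without overlap. Abhd5, Plin4 and Mgll had the smallest p of that list. Over all genes, 3.66% separated the groups with higher values. Of 3 genes of ketone body use, Bdh1 differed by 0.16 ± 0.085, Acat1, also counted among the 34, by 0.10 ± 0.086 and Oxct1 by 0.036 ± 0.13. Among 23 regulators, 14 were higher, with a median of 0.013, and 10 of the 16 above the floor, with a median of 0.061. Prkab2, a subunit of AMP-activated kinase, separated the groups with 0.48 ± 0.13, and Foxo1 and Prkag2 differed by 0.15 ± 0.045 and 0.074 ± 0.024. Ppargc1a and Esrra, a coactivator and a receptor for both pathways, were named after their values were seen and differed by 0.056 ± 0.14 and 0.19 ± 0.12. No gene of these 4 lists passed the adjusted threshold with limma, unpaired.

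Single muscles weighed heavily on both pathways. A list's level in a muscle is obtained by centring every gene on its mean of 8 muscles (log2) and averaging over the list. For pyruvate dehydrogenase and the cycle it was -0.033, 0.015, -0.057 and -0.16 in control muscles 1 to 4 and 0.20, -0.11, 0.095 and 0.051 in spermine oxidase muscles 1 to 4. Spermine oxidase muscle 1 was the highest and control muscle 4 the lowest, and spermine oxidase muscle 2 lay among the controls. Fatty acid oxidation ran in nearly the same order, at -0.030, 0.041, -0.074 and -0.11 and 0.14, -0.054, 0.050 and 0.036. Among the genes above the floor, spermine oxidase muscle 1 was the highest of the 8 for 11 of 18 cycle genes and 10 of 15 fatty acid oxidation genes. Spermine oxidase muscle 2 was the lowest of its group for 11 of 18 and 11 of 15, and control muscle 4 the lowest of its group for 8 of 18 and 10 of 15. On the brightest Smox probe these end muscles, spermine oxidase muscle 1 and control muscle 4, were also the highest and the lowest, whereas on the 3 dimmer probes spermine oxidase muscle 2 was the highest. Without these end muscles, a choice made after seeing the data, the median differences were 0.034 for the cycle and 0.039 for fatty acid oxidation.

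**Figure D4:**
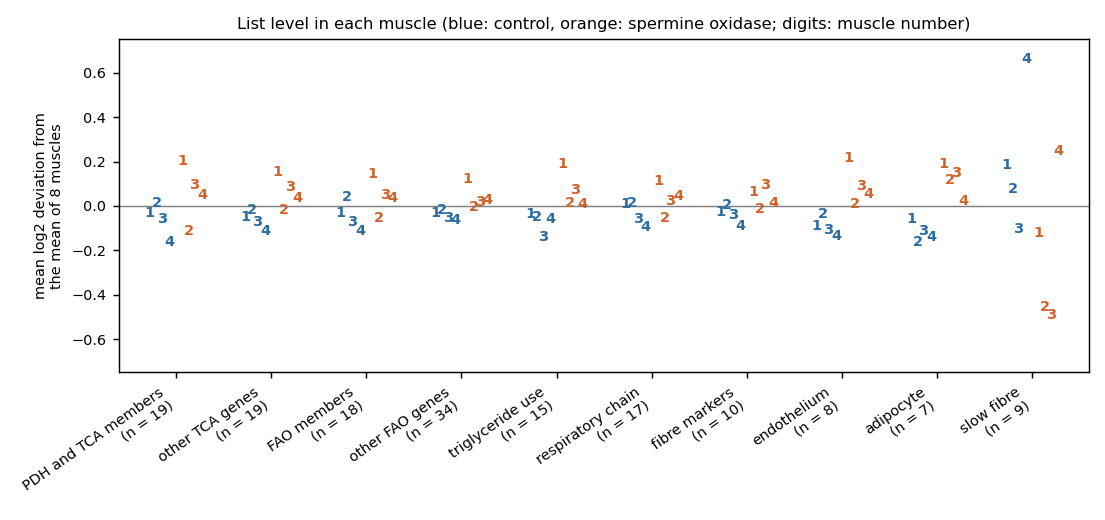
Level of 10 gene lists in each muscle (vertical axis: mean log2 deviation from the mean of the 8 muscles; n: genes in the list), with control muscles in blue, spermine oxidase muscles in orange and digits for muscle numbers. Spermine oxidase muscle 1 is highest in both pathways and spermine oxidase muscle 2 lies among the controls, and control muscle 4 is highest in the slow fibre list.

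Markers of other cells and fibre types differed too, and their part in the differences of the pathways was not tested. In whole muscle, fewer cells of a type and less RNA per cell cannot be told apart. Over all genes 49.2% were higher, the share to set beside the counts that follow. Endothelial markers were higher in 8 of 8 cases, with a summed signal, as log2, of 12.88 to 13.01 in control and 13.05 to 13.31 in spermine oxidase muscles, and Kdr at the floor. Pecam1, Tek and Flt1, those of smallest p in the list, differed by 0.21 ± 0.039, 0.34 ± 0.063 and 0.51 ± 0.16. Each of them separated the groups, as 3.66% of all genes did in that direction. Emcn and Esam differed by 0.034 ± 0.094 and 0.17 ± 0.082, with overlapping groups. Of 7 adipocyte markers, 3 lay above the floor, and all 3 were higher. Counting the 4 near the floor, 6 of 7 were higher. The summed signal of the 7, as log2, was 13.46 to 13.94 in control and 13.82 to 14.35 in spermine oxidase muscles. That sum was mostly Car3 (means of 13.02 in control and 13.56 in spermine oxidase muscles) and Adipor2 (11.60 and 11.85). It therefore says little about the other adipocyte markers. Adipoq read 8.65 to 9.30 and 9.47 to 9.68, and Car3 and Adipor2 differed by 0.54 ± 0.21 and 0.25 ± 0.083. Plin1, Cidec, Retn and Lep lay at or near the floor (Lep difference 0.17 ± 0.049). Slow fibre markers were lower in 7 of 9 cases (14.39 to 15.21 in control and 13.88 to 14.64 in spermine oxidase muscles). Myh7, the slow myosin, lay at the floor, so whether slow fibres changed cannot be read from this list. Tnni1, Casq2 and Tnnt1, those of smallest p, differed by -0.86 ± 0.20, -0.75 ± 0.20 and -0.72 ± 0.21. The 2 that were higher, Myl2 and Myl3, differed by 0.39 ± 0.52 and 0.34 ± 0.37. Markers of immature fibres were lower in 8 of 9 cases (16.14 to 16.51 in control and 14.75 to 16.03 in spermine oxidase muscles). That sum was mostly Myh8, Igf2 and Myl4 (control means of 14.90, 14.49 and 14.33). Myh8 and Igf2 differed by -1.28 ± 0.38 and -0.87 ± 0.24. Myl4, Ncam1 and Chrng, those of smallest p, differed by -0.87 ± 0.18, -0.63 ± 0.16 and -0.88 ± 0.24, with Pax7 and Myf5 at the floor. Macrophage markers were higher in 3 and lower in 3 of 6 cases (13.83 to 14.57 in control and 13.43 to 14.08 in spermine oxidase muscles). Their sum was mostly Lyz2 (means of 13.48 in control and 13.09 in spermine oxidase muscles). Cd163, Lyz2 and Cd14 differed by 0.22 ± 0.044, -0.38 ± 0.26 and -0.15 ± 0.19, with Itgam at the floor. Fibre markers were higher in 8 of 10 cases (18.09 to 18.16 in control and 18.14 to 18.24 in spermine oxidase muscles). Myh4, Actn3 and Ckm, those of smallest p, differed by 0.34 ± 0.11, 0.13 ± 0.060 and 0.087 ± 0.057. The 2 that were lower, Acta1 and Mylpf, differed by -0.011 ± 0.036 and -0.0085 ± 0.034. Genes of the respiratory chain and ATP synthase were higher in 12 of 17 cases, with a median of 0.053 (17.75 to 17.88 in control and 17.82 to 17.94 in spermine oxidase muscles), and Ndufb5, Uqcrfs1 and Atp5b differed by 0.50 ± 0.10, 0.053 ± 0.015 and 0.055 ± 0.017, with Uqcrfs1 and Ndufs1 at the floor. None of these marker genes passed the adjusted threshold with limma, unpaired, over the 8 muscles. Without spermine oxidase muscle 2, Ndufb5 passed it (0.60, limma adjusted p = 0.0368).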

How the data were processed

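Total RNA of 8 muscles was measured, per the labels' protocols after TRIzol extraction, column purification with DNase, amplification and biotin labelling. The authors deposited log2 values for 25697 probes, running from 8.10 to 15.29 with a median of 8.33 on every array. How they were normalized, and with which software, is not given in the sources used here. Probes were named through the platform annotation (23978 had 1 gene, 0 several, 1719 none here), and a gene took its brightest probe, which left 16593 genes. No filter on dim probes was applied. Of the 37 genes, 16 had further probes, 24 in all. Of the 15 further probes above the floor, 11 had the sign of the brightest.

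Groups came from the titles. The test over all genes was limma's moderated one (lmFit, eBayes, version 3.58.1, R 4.3.3), two-sided and unpaired, with Benjamini-Hochberg adjustment over all genes and a threshold of 0.05. The fit was tested on simulated data. Single genes were also compared by an exact permutation test over the 70 labelled arrangements of 4 against 4. Genes named are all 37, Smox, up to 3 genes of smallest p from each further list, and other genes of those lists given beside them. Of these last, only Pdp1, Ppargc1a and Esrra were followed through the alternatives. The genes and lists were chosen with earlier results of these data known. Alternatives were the replicate number as a block, quantile, median and loess normalization, an offset of 16, the dimmest 40% of probes left out, the mean of probes, array weights, a prior with intensity trend and robust fit (statmod 1.5.0) and leaving out muscles. Promoters were searched and plots drawn in Python 3.11.15 with matplotlib 3.10.9.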

Additional observations from a re-analysis of the deposited data

Results flagged for a closer look

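In 80 groups of 4 muscles looked at (37 genes, Smox and the 2 pathway levels, in each group), 4 had 1 muscle apart from the other 3, and chance gives about 1 in 20. All were in the spermine oxidase group. Cs read 11.82 in spermine oxidase muscle 2, with the others at 12.83 to 12.88. Acadl read 9.81 in the same muscle, with the others at 10.17 to 10.20. Acadvl read 12.26 in spermine oxidase muscle 1, with the others at 12.03 to 12.06. Suclg1 read 13.86 in spermine oxidase muscle 1, with the others at 13.69 to 13.72.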

How the results depend on the processing

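No alternative called any of the 37 genes except the replicate block. With the replicate number as a block, limma called 266 of 16593 genes (1.60%; 137 higher, 129 lower), where the unpaired fit called 0, and 2 cycle genes were among them: Pdk2 (0.41 ± 0.043, adjusted p = 0.0294) and Idh3b (-0.24 ± 0.028, adjusted p = 0.0360). Smox was called too (1.16, adjusted p = 0.0410). Of the other genes followed through the alternatives, the block called Me1, Ech1, Abhd5, Plin4, Prkab2, Tnni1, Casq2, Tnnt1, Myl4, Ncam1, Flt1 and Ndufb5, with adjusted p-values from 0.0159 (Tnni1, Casq2 and Tnnt1) to 0.0468 (Ndufb5). Whether equal numbers mark paired muscles is not settled: their deviations correlated at 0.60, -0.14, 0.67 and 0.60 for numbers 1 to 4, those of unequal numbers at no more than 0.37, and no label states a pairing. By number the difference was 0.37, 0.29, 0.50 and 0.48 for Pdk2, -0.31, -0.19, -0.20 and -0.28 for Idh3b, and 0.72, 0.35, 0.52 and 0.11 for Pdk4 (block adjusted p = 0.132). Subtracted by number, 3 of 19 cycle genes and 4 of 18 fatty acid oxidation genes were higher in all 4, as were 11.3% of all genes. The trend and robust prior called 8 genes. Leaving out 1 muscle gave 0 to 14 calls over all genes (14 without spermine oxidase muscle 2), 13 to 18 higher cycle genes with medians of 0.034 to 0.18, 11 to 13 higher fatty acid oxidation genes with medians of 0.051 to 0.14, and 0.95 to 1.28 for Smox. Over the scaling, probe and weight alternatives, 15 to 17 cycle and 11 to 12 fatty acid oxidation genes were higher. Leaving out control muscle 4 and spermine oxidase muscle 1 together, added after seeing the data, gave 13 and 11, and 0.74 for Smox. The mean of its probes gave 2.48 for Smox. Of the 37 genes, 25 kept their sign in all 18 alternatives. The sign turned for Fh1 with cyclic loess (-0.0037), array weights (-0.032) and both end muscles left out (-0.14), for Cd36 with the offset (0.0015) and both muscles left out (0.0016), for Acot2 (0.018) and Pdhb (0.023) with the mean of probes, and for Etfdh (-0.026), Dlat (-0.077) and Dld (-0.044) with both muscles left out. It also turned for Oxct1 (-0.020) and Ppargc1a (-0.0029) with array weights, and with both muscles left out for Oxct1 (-0.047), Acat1 (-0.012), Ppargc1a (-0.066) and Cd14 (0.092). The cause of these turns was not tested. Leaving out 1 muscle moved Acadl between -0.14 and 0.014, Hadh between -0.027 and 1e-04, Acaa2 between -0.068 and 0.049, Dlst between -0.061 and 0.062, Idh2 between -0.085 and 0.16, Dld between -0.053 and 0.18, Fh1 between -0.065 and 0.11, Pdhb between -0.083 and 0.058, Cd36 between -0.018 and 0.0051, Cd14 between -0.24 and 0.063, Oxct1 between -0.062 and 0.11 and Ppargc1a between -0.055 and 0.15. The signal's floor limits what can be said of Sucla2, Cd36, Hadh and Acot2.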
